A study of Mus musculus with 6 samples.

Results

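Collagen chains are the gene products described here, in RNA libraries from mouse embryos with and without the receptor gene Lphn2. Members are the gene symbols of the count tables that begin with Col, a number, the letter a and a number, and that average at least 1 CPM (counts scaled to the library total) over the 6 libraries. Of 24421 symbols counted, 45 match the pattern, and 34 of these reach that level. Col4a3bp is among the 34 through its name alone: it encodes a ceramide transfer protein, so the members hold 33 collagen chains. The member nearest above the limit was Col6a4 at a mean of 1.23 CPM, and the symbol nearest below it was Col11a2 at 0.596 CPM.

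The study compared 3 wild type libraries (WT) with 3 libraries labelled homozygous for a knockout of Lphn2 (Lphn2 KO), all from C57BL/6N mice, labelled whole embryo, at embryonic day 9.5. No treatment is named for either group, and the labels do not say how the allele was made, which part of the gene it lacks, or whether a library holds RNA of 1 embryo. Lphn2 is the older name of Adgrl2, which encodes latrophilin-2, a cell-surface receptor of the adhesion family that the series presents as a marker of heart progenitors. The libraries were made with a kit that reads tags near the 3′ end of polyadenylated RNA, so the tags of a gene do not grow in number with transcript length.

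Collagens are secreted or membrane proteins whose chains carry glycine at regular intervals and wind around each other into a rope-like helix. Fibrillar chains build the fibres of connective tissue, bone and cartilage, and type IV chains build the sheet of basement membranes beneath epithelia and around vessels. Other classes decorate fibrils, form beaded filaments around cells, anchor epithelia or span the cell membrane. In the midgestation mouse conceptus basement membrane collagens are made early and widely, whereas cartilage collagens belong to the somite-derived skeleton, the notochord and the neural crest derived mesenchyme that are only beginning to differentiate.

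Adgrl2 was read at 10.9, 7.56 and 16 CPM in WT libraries 1, 2 and 3 and at 5.49, 1.67 and 2.78 CPM in Lphn2 KO libraries 1, 2 and 3. All triplets of values in what follows are in this order, as counts relative to the effective library size (TMM-normalised CPM). The log2 fold change of Lphn2 KO over WT was -1.78 ± 0.50 (SE), with an adjusted p of 0.194 in the quasi-likelihood test of edgeR, 0.0224 with DESeq2 and 0.0442 in edgeR without Lphn2 KO library 1 (all alternatives spanned 0.0224 to 0.574). The 3′ tags may lie outside the deleted part, so these values do not check the labels. Total counts were 14476809 to 36213611 per library. Transcripts of the maternal lining of the uterus were abundant: 7 decidual markers summed to 18466 to 34278 CPM in WT and 3328 to 7988 CPM in Lphn2 KO libraries, and 4 of the 7 had a fold change below 0. Most of the WT sum was Prl8a2, at 14989, 28746 and 17981 CPM in WT and 2900, 1279 and 5335 CPM in Lphn2 KO libraries. Pgr, Hoxa10 and Hoxa11 went the other way without overlap, with log2 fold changes of 1.05, 1.05 and 0.89. Markers of the embryo's own tissues were low, with 8 heart muscle genes at 77.9, 36.9 and 287 CPM in WT and 16.5, 4.13 and 16.9 CPM in Lphn2 KO libraries. The 5 neural genes summed to 17.5, 15.4 and 124 CPM and 4.35, 3.4 and 2.71 CPM. Nkx2-5, a defining gene of the early heart, was at 0 in every Lphn2 KO library and in WT library 2, although all 6 are labelled whole embryo. The 9 markers of visceral yolk sac endoderm summed to 364, 487 and 509 CPM in WT and 162, 4.6 and 18.1 CPM in Lphn2 KO libraries, and all 9 had a fold change below 0. Across the log2 levels of the 13848 genes tested, Lphn2 KO library 1 correlated at 0.966 and 0.961 with WT libraries 1 and 2 and at 0.935 and 0.937 with Lphn2 KO libraries 2 and 3, so it stood apart from its group (Pearson's r over genes, which are not independent). WT library 3 also stood apart, at 0.943 and 0.910 with WT libraries 1 and 2 and 0.915 with Lphn2 KO library 1. In such mixed RNA, fewer cells of a type and less RNA per cell cannot be told apart.

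The summed level of all 44 collagen chain symbols was 2767, 757 and 1696 CPM in the WT libraries and 802, 1158 and 1078 CPM in the Lphn2 KO libraries. WT libraries 1 and 3 lay above the other 4, and WT library 2 lay below every Lphn2 KO library. The spread was mostly in the fibrillar class, at 1338, 255 and 830.2 CPM in WT and 246, 381 and 380.1 CPM in Lphn2 KO libraries, and in type VI, at 929, 93.2 and 296 CPM in WT and 193, 321 and 266 CPM in Lphn2 KO libraries. Type IV chains summed to 274, 318 and 195 CPM and 262, 348 and 341 CPM, with the group ranges overlapping. Col4a1 and Col4a2 together took 9.42, 41.5 and 11 percent of the collagen sum in WT libraries and 31.8, 29.4 and 30.8 percent in Lphn2 KO libraries.

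**Figure D1:**
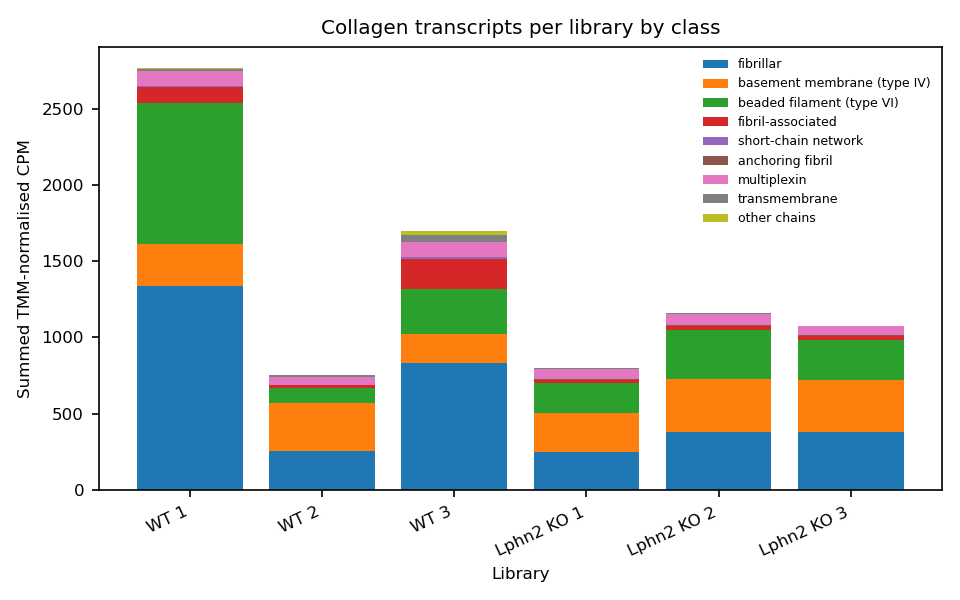
Summed TMM-normalised CPM of the 44 collagen chain symbols in each of the 6 libraries, stacked by class, with 1 bar per library. WT library 1 reaches 2767 CPM and WT library 2 757 CPM, while the type IV segment differs less between libraries than the fibrillar and type VI segments.

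Of the 34 members 31 passed the filter on low counts and were tested in the fit over 13848 genes, 30 of them collagen chains. None passed an adjusted p of 0.05 in either direction by edgeR, where 0% of all genes tested were called higher and 0.0505% lower, and none did by limma-voom. Before adjustment 12 members were lower and 1 was higher in edgeR at the 0.05 level, beside 6.86% and 8.68% of all genes. DESeq2 called 10 of the 31 members to which it gave an adjusted p lower (32.3%) and 0 higher, beside 3.13% lower and 2.82% higher among all genes with one. The 10 were Col1a1, Col2a1, Col5a1, Col11a1, Col12a1, Col16a1, Col23a1, Col25a1, Col26a1 and Col27a1. Of these, Col2a1, Col11a1, Col23a1, Col25a1, Col26a1 and Col27a1 had Lphn2 KO means below 1 CPM and were members only through the WT libraries. The shares of all genes with DESeq2 were not limited to a mean of 1 CPM, so the excess depends in part on the rule. In 8 of the 31 tested members (25.8%) every Lphn2 KO value lay below every WT value, beside 9.39% of all genes. Among these 8 were Col11a1, Col23a1, Col26a1 and Col27a1, at means of 0.426, 0.261, 0.254 and 0.717 CPM in Lphn2 KO libraries. Col6a4 and Col9a1 were also among them, at 0.816 and 0.490 CPM. These members reached the limit of 1 CPM only through the WT libraries, so the share depends in part on the rule. The others, Col12a1 and Col13a1, had Lphn2 KO means of 1.54 and 2.13 CPM. With a mean of at least 1 CPM asked of all genes, 8 of 34 members (23.5%) lay wholly below, beside 8.75% of genes. In 1 of the 31 (3.23%) every Lphn2 KO value lay above, beside 12.1% of all genes. The median log2 fold change of the 30 chains was -1.24, beside -0.04 over all genes tested, and 24 of the 30 had a value below 0, as did 53.4% of all genes. The members left out of the test, Col9a2, Col8a2 and Col25a1, were too low in too many libraries for edgeR and are given as values.

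These counts turn on single libraries. Without WT library 2, all Lphn2 KO values lay below all WT values in 21 of 33 members (63.6%), beside 20.1% of all genes in the same comparison of 3 with 2 libraries. There edgeR called 2 members lower, Col11a1 and Col16a1, among 11 genes in the whole table. Without Lphn2 KO library 1 edgeR called Col13a1 lower, and 5 of 33 members (15.2%) had all Lphn2 KO values above all WT values, beside 22.0% of all genes. All Lphn2 KO values then lay below all WT values in 9 of 33 members (27.3%), near the 23.6% of all genes. In the whole table that omission gave 466 genes called lower instead of 7, and 252 called higher instead of 0. Without WT library 1, whose sample code begins with 32 where the other 5 begin with 45 (the labels do not explain the code), 0 members were called and 8 of 31 lay wholly below (25.8%, beside 13.4% of all genes).

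**Figure D2:**
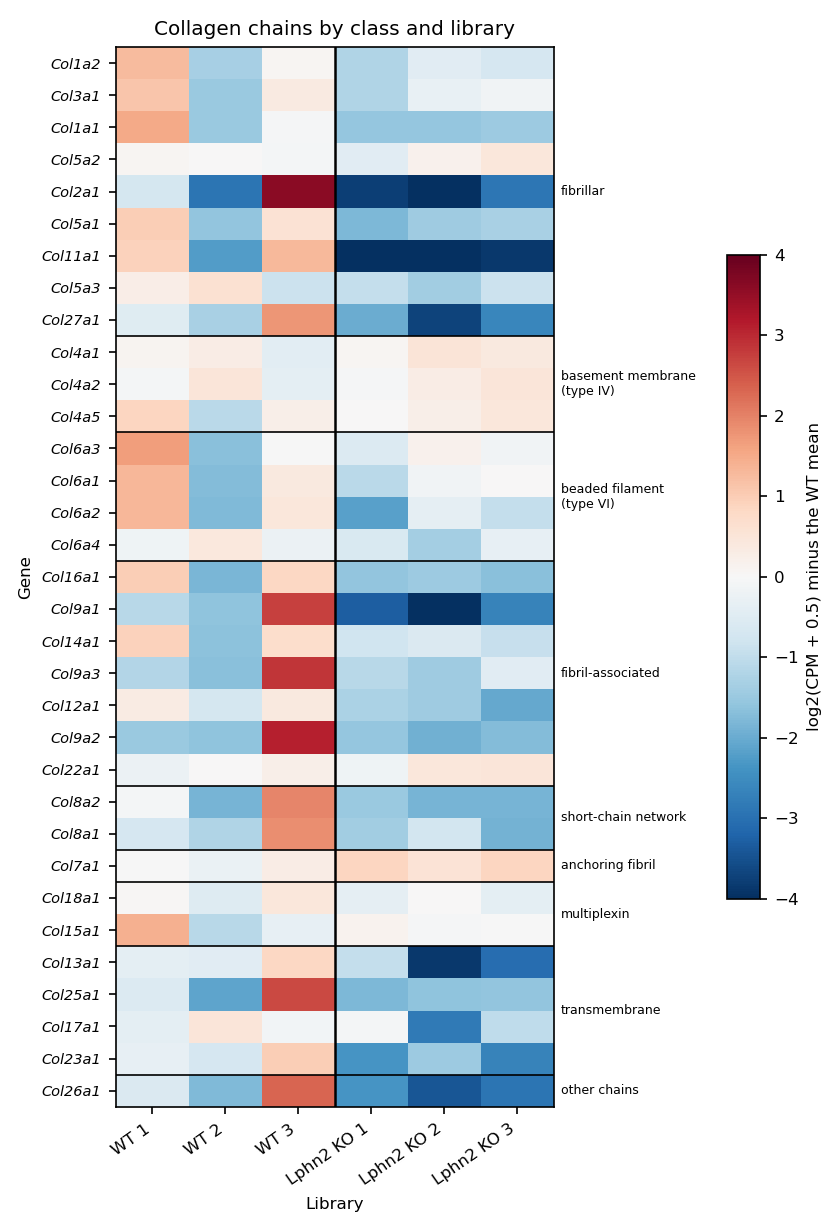
Level of each of the 33 chains in each library as log2(CPM + 0.5) minus the mean of the 3 WT libraries, by class, with the colour scale ending at -4 and 4. WT library 1 is high in types I, III and VI and WT library 3 in types II and IX and in Col25a1 and Col26a1. Col11a1 is high in both of these libraries, and the Col4a1 and Col4a2 rows stay pale throughout.

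The sequences before the start sites of the chains differ in base composition, and 4 are shown because they stand for members that behaved differently: Col3a1 for the type I and III pattern, Col5a1 and Col11a1 for fibrillar chains with lower Lphn2 KO means, and Col9a1 for the type IX pattern. They are the 250 bases before the RefSeq start site on GRCm38.p6, 5′ to 3′ on the strand of the gene. Capitals mark matches on either strand to CCAAT, the CCAAT box. They also mark TATAAA, the TATA box, and ACAAT, the core bound by SOX proteins, of which Col3a1 has 1 match on each strand, overlapping each other.
Col3a1 (chr1:45311288-45311537, plus strand): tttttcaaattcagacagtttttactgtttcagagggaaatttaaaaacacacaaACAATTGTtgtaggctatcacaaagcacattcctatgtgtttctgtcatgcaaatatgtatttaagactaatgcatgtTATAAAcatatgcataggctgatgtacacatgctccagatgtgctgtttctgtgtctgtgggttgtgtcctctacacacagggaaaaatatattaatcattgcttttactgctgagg
Col5a1 (chr2:27886175-27886424, plus strand): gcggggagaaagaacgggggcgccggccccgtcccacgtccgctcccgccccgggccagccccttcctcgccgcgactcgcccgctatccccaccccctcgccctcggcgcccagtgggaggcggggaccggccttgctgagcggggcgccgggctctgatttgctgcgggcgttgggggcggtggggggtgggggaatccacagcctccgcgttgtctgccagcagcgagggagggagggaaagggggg
Col11a1 (chr3:114030290-114030539, plus strand): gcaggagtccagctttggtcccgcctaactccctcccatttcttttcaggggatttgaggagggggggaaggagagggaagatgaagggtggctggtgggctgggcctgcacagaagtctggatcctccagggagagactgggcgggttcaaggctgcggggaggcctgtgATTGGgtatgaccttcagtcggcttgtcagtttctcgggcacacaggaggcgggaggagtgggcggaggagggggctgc
Col9a1, upstream start (chr1:24177360-24177609, plus strand): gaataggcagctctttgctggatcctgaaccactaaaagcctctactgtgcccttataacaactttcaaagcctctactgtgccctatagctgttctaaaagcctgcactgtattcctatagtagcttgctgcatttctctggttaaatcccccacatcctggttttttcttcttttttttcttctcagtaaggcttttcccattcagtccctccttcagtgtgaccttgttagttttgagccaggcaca
The G and C content is 35.2% in Col3a1, 43.6% in Col9a1, 62.4% in Col11a1 and 76.4% in Col5a1, with 0, 0, 7 and 28 CG dinucleotides. Col3a1 holds a TATAAA match 117 bases before the start site and a pair of SOX core matches, and Col11a1 holds a CCAAT match 79 bases before its start site. The windows of Col5a1 and upstream Col9a1 hold none of these letters. Col9a1 has another RefSeq start inside the gene. Its window (chromosome 1, 24194953 to 24195202) holds a CCAAT match 18 bases before that start, which runs into an annotated exon of Col9a1. These are matches of letters, and whether any acts as a promoter element was not tested. Over 32851 RefSeq promoter windows of this length, 33.8% hold the CCAAT box, 12.4% the TATA box and 27.7% the SOX core. Of 35 collagen symbols with an entry, 13, 5 and 2 do. Col1a1, Col2a1, Col4a3, Col5a2, Col9a3, Col12a1, Col14a1, Col22a1 and Col26a1 had no entry.

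Types I and III, the fibres of skin, bone, vessel walls and loose connective tissue, were highest in WT library 1. Col1a1 (chromosome 11, 94936224 to 94953042, plus strand), the major chain of type I collagen, stood at 311, 38.3 and 103 CPM in WT and 36.7, 36.2 and 38.9 CPM in Lphn2 KO libraries. WT library 2 lay within the Lphn2 KO range, WT libraries 1 and 3 lay above it, and the Lphn2 KO values were close together at 37.3 ± 1.45 CPM (SD, n = 3). Its log2 fold change was -2.02 ± 0.67 (SE) (edgeR adjusted p = 0.238, DESeq2 adjusted p = 0.0121, all alternatives 0.0121 to 0.588). Col1a2, the partner chain of type I, stood at 633, 106 and 279 CPM in WT and 116, 193 and 165 CPM in Lphn2 KO libraries, with groups that overlap and a log2 fold change of -1.10 ± 0.58 (SE) (edgeR adjusted p = 0.406). Col3a1, whose product forms the thin fibres of extensible tissues, stood at 237, 38.8 and 142 CPM and 47.7, 88.3 and 99.4 CPM, again with WT library 2 lowest of all (log2 fold change -0.83, edgeR adjusted p = 0.546). Without WT library 1 these fold changes shrank to -0.92, -0.28 and -0.20.

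WT library 1 also stood apart in smooth muscle markers. Myh11, the myosin heavy chain of smooth muscle, was read at 52.5, 1.58 and 1.25 CPM in WT and 0.157, 0.533 and 1.71 CPM in Lphn2 KO libraries. Cnn1, calponin, stood at 87.8, 1.46 and 2.85 CPM and 0.627, 1.0 and 1.78 CPM, and Acta2, smooth muscle actin, at 369, 25 and 90.3 CPM and 27.2, 33.5 and 29.7 CPM. All 5 smooth muscle markers were above 0 in each library, and their sum of 1029 to 1764 CPM in WT and 2048 to 3579 CPM in Lphn2 KO libraries was mostly Des, which decidual cells also express. The part of these cells in the type I, III and VI values was not tested.

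**Figure D3:**
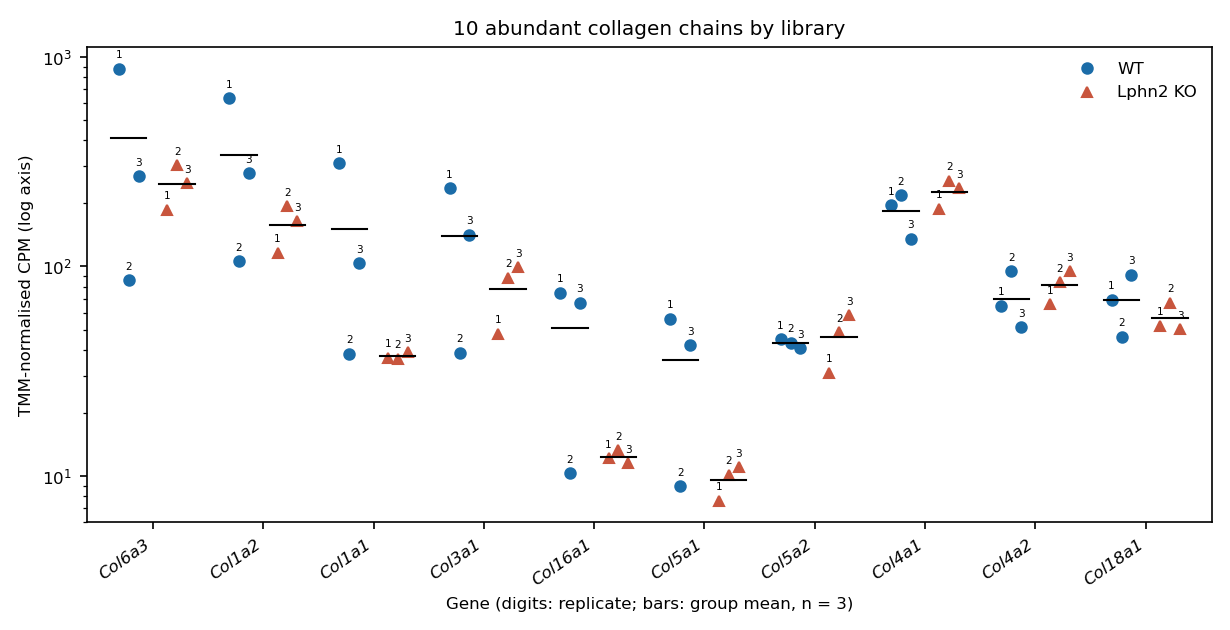
TMM-normalised CPM of 10 abundant chains on a log axis, with 1 point per library (digits give the replicate) and a bar at each group mean (n = 3). In Col6a3, Col1a2, Col1a1, Col3a1, Col16a1 and Col5a1 the WT points spread widely with WT 2 lowest among them, whereas Col5a2, Col4a1, Col4a2 and Col18a1 have overlapping groups with less spread.

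Type V chains, which co-assemble with type I and set fibril width, did not share a pattern. Col5a1 stood at 56.3, 8.96 and 42.2 CPM in WT and 7.61, 10.1 and 11 CPM in Lphn2 KO libraries, with WT library 2 inside the Lphn2 KO range (log2 fold change -1.91 ± 0.60 (SE), edgeR adjusted p = 0.221, DESeq2 adjusted p = 0.0162). Col5a2 stood at 44.9, 43.2 and 40.7 CPM and 31.1, 48.5 and 58.6 CPM, so the WT libraries that differed several-fold in Col5a1 were nearly level here (log2 fold change 0.10 ± 0.24 (SE), edgeR adjusted p = 0.866). Its sign turned to -0.10 without Lphn2 KO library 3. Col5a2 (chromosome 1, 45374321 to 45503282, minus strand) is the genomic neighbour of Col3a1 (chromosome 1, 45311538 to 45349706, plus strand), whose values followed type I instead. Col5a3, a minor chain, stood at 10.4, 13.2 and 4.44 CPM and 4.2, 2.93 and 4.49 CPM, where WT library 3 and Lphn2 KO library 3 met (log2 fold change -1.26, edgeR adjusted p = 0.255).

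Col2a1 and Col11a1, fibrillar chains of cartilage, had the lowest fold changes of the members tested. Col2a1 (chromosome 15, 97975602 to 98004695, minus strand), the main collagen of cartilage and of the notochord sheath, was read at 6.88, 1.1 and 147 CPM in WT and 0.392, 0.267 and 1.14 CPM in Lphn2 KO libraries. WT library 3 held nearly all of it, and WT library 2 lay just below the highest Lphn2 KO library, so the groups overlap (log2 fold change -6.48 ± 1.86 (SE), edgeR adjusted p = 0.194, DESeq2 adjusted p = 0.00595). Without WT library 3 the log2 fold change was -2.75. Col11a1, which nucleates type II fibrils, stood at 33.3, 3.29 and 43.2 CPM in WT and 0.431, 0.133 and 0.713 CPM in Lphn2 KO libraries, and every Lphn2 KO value lay below every WT value. It had the smallest p of the members (log2 fold change -5.96 ± 1.06 (SE), edgeR adjusted p = 0.165). DESeq2 gave an adjusted p of 3.13e-10, and edgeR without WT library 2 gave 0.0416 (all alternatives 3.13e-10 to 0.574). Col27a1, a cartilage chain of the same class, stood at 4.85, 2.5 and 25 CPM and 1.37, 0.0667 and 0.713 CPM without overlap (log2 fold change -3.85, edgeR adjusted p = 0.205, DESeq2 adjusted p = 0.00379).

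Type IX chains sit on the surface of type II fibrils, and, like Col2a1, each was highest in WT library 3. Col9a1 stood at 3.91, 2.68 and 62.9 CPM in WT and 0.471, 0 and 0.998 CPM in Lphn2 KO libraries, without overlap and with WT library 3 far above the rest (log2 fold change -5.57 ± 1.59 (SE), edgeR adjusted p = 0.194; DESeq2 gave none). Col9a3 stood at 0.725, 0.366 and 19.4 CPM and 0.784, 0.533 and 1.5 CPM, and its log2 fold change of -2.88 turned to 0.75 without WT library 3. Col9a2, given no adjusted p by edgeR or DESeq2, stood at 0.181, 0.122 and 16.1 CPM and 0.157, 0 and 0.0713 CPM. Col2a1, type IX and type XI chains made up 1.63, 0.998 and 17.2 percent of the collagen sum in WT libraries and 0.323, 0.121 and 0.41 percent in Lphn2 KO libraries.

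Sox9, the transcription factor that drives cartilage formation, was also highest in WT library 3: it stood at 26.5, 8.29 and 184 CPM in WT and 6.86, 9.07 and 6.91 CPM in Lphn2 KO libraries. The other members of the cartilage and notochord marker list, T, Shh and Noto, were below 0.5 CPM in every library, and Noto was at 0 in 5 of the 6. The 8 genes of sclerotome, dermomyotome and limb mesenchyme summed to 47.5, 18.4 and 86.8 CPM in WT and 25.8, 15.4 and 14.1 CPM in Lphn2 KO libraries, and all 6 tested members had a fold change below 0. Pax1, the sclerotome marker of the 8 and not tested by edgeR, was at 2.03, 0.0609 and 8.54 CPM in WT and at 0 in each Lphn2 KO library. WT library 3 was highest too in the heart and neural sums given above. How far the amount of embryonic tissue in a library sets these collagen values was not tested.

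Type IV collagen, the network of basement membranes, had overlapping groups in its 3 tested chains and fold changes near 0. Col4a1 (chromosome 8, 11198423 to 11312826, minus strand) stood at 196, 219 and 135 CPM in WT and 189, 256 and 237 CPM in Lphn2 KO libraries, with group means of 184 ± 43.3 and 227 ± 34.7 CPM (SD, n = 3 each). Its partner Col4a2 (chromosome 8, 11312805 to 11449287, plus strand), which joins it in the ubiquitous form of the network, stood at 64.8, 94.8 and 51.3 CPM and 66.1, 84.1 and 94.9 CPM. The log2 fold changes were 0.31 ± 0.23 (SE) and 0.22 ± 0.26 (SE), with edgeR adjusted p of 0.555 and 0.72, and both stayed above 0 under the alternatives run. The genes lie head to head on opposite strands, with RefSeq start sites 21 bases apart. Col4a5, a chain of kidney and muscle basement membranes, stood at 11.5, 2.68 and 7.26 CPM and 6.27, 7.33 and 8.55 CPM, and its log2 fold change of 0.04 turned to -0.34 without WT library 2 and to -0.07 without Lphn2 KO library 3. Col4a6, its head-to-head partner on the X chromosome, had 22, 3 and 28 counts in WT and 1, 0 and 2 counts in Lphn2 KO libraries. Col4a3 and Col4a4, the chains of the mature kidney filter, had at most 20 and 11 counts in a library. The 6 endothelial markers, of cells that lay down such membranes, summed to 826 to 1516 CPM in WT and 1180.0 to 1693 CPM in Lphn2 KO libraries.

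Type VI collagen forms beaded filaments close to cells. Col6a3 (chromosome 1, 90765923 to 90843971, minus strand), its long chain, was the collagen symbol with the highest mean level, at 879.7, 85.9 and 269 CPM in WT and 187, 305 and 250.2 CPM in Lphn2 KO libraries. WT library 1 was the highest and WT library 2 the lowest of the 6, so the WT group enclosed the Lphn2 KO group (log2 fold change -0.73 ± 0.72 (SE), edgeR adjusted p = 0.656). Without WT library 1 the sign turned, to 0.49. Col6a1, a short chain encoded beside Col6a2 on chromosome 10, stood at 25.1, 2.56 and 12.9 CPM in WT and 4.31, 8.73 and 9.69 CPM in Lphn2 KO libraries (log2 fold change -0.84, edgeR adjusted p = 0.612). Col6a2, the other short chain, stood at 22.9, 2.19 and 12.1 CPM and 1.57, 6.73 and 4.28 CPM (log2 fold change -1.58, edgeR adjusted p = 0.41). In both, the WT group again enclosed most Lphn2 KO values, with WT library 1 highest. Col6a4 stood at 1.38, 2.38 and 1.31 CPM and 0.902, 0.333 and 1.21 CPM, at the limit of inclusion, and did not overlap (log2 fold change -1.04, edgeR adjusted p = 0.489). Col6a5 and Col6a6 had at most 4 and 14 counts in a library.

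Among the chains that decorate fibrils, Col16a1, made by fibroblasts and smooth muscle cells, stood at 74.9, 10.3 and 67.2 CPM in WT and 12.2, 13.3 and 11.5 CPM in Lphn2 KO libraries. The Lphn2 KO libraries were level and WT library 2 lay below them (log2 fold change -2.05 ± 0.64 (SE), edgeR adjusted p = 0.221). DESeq2 called it lower at an adjusted p of 0.0116, as did edgeR without WT library 2 (adjusted p = 0.0416, all alternatives 0.0116 to 0.586). Col12a1, of tendon and periosteum, stood at 6.92, 3.17 and 7.21 CPM and 1.96, 1.73 and 0.927 CPM without overlap (log2 fold change -1.90 ± 0.49 (SE), edgeR adjusted p = 0.176, DESeq2 adjusted p = 0.0215). Col14a1, a relative of Col12a1 in dense connective tissue, stood at 16.2, 2.32 and 13.7 CPM and 4.47, 5.4 and 4.06 CPM with WT library 2 lowest (log2 fold change -1.21, edgeR adjusted p = 0.406). Col22a1, of tissue junctions, stood at 1.81, 2.25 and 2.69 CPM and 1.92, 3.27 and 3.35 CPM (log2 fold change 0.33, edgeR adjusted p = 0.736).

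Col7a1 was the member whose Lphn2 KO values all lay above the WT values. It encodes the anchoring fibril that ties the epidermal basement membrane to the dermis, and it stood at 2.61, 2.13 and 3.34 CPM in WT and 5.25, 4.13 and 5.27 CPM in Lphn2 KO libraries. The log2 fold change was 0.85 ± 0.35 (SE), short of the threshold in edgeR (adjusted p = 0.305) and in DESeq2 (adjusted p = 0.303). The squamous epithelium markers Trp63, Krt5 and Krt14 summed to 2.28, 0.67 and 25.1 CPM in WT and 0.627, 0.0667 and 0.214 CPM in Lphn2 KO libraries, so the Lphn2 KO sums lay below the WT sums. Short-chain network collagens, found in vessel walls and the cornea, were read mainly in WT library 3: Col8a1 stood at 0.652, 0.305 and 6.17 CPM in WT and 0.196, 0.60 and 0 CPM in Lphn2 KO libraries (log2 fold change -3.16, edgeR adjusted p = 0.354). Col8a2, not tested by edgeR, stood at 1.23, 0 and 6.53 CPM and 0.157, 0 and 0 CPM (DESeq2 adjusted p = 0.0577).

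The multiplexins, basement membrane proteoglycans, had overlapping groups. Col18a1, the source of the fragment endostatin, stood at 69.3, 46.2 and 91.5 CPM in WT and 52.2, 67.2 and 50.2 CPM in Lphn2 KO libraries (log2 fold change -0.29 ± 0.27 (SE), edgeR adjusted p = 0.638). Col15a1, of capillary and muscle basement membranes, stood at 30.9, 5.0 and 8.86 CPM and 12.3, 10.8 and 11.1 CPM. Its log2 fold change of -0.39 rested on WT library 1 and was 0.72 without it.

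Transmembrane chains were lower on average in Lphn2 KO libraries. Col13a1, of cell-matrix contacts and the neuromuscular junction, stood at 8.11, 7.68 and 19.4 CPM in WT and 5.25, 0.267 and 0.855 CPM in Lphn2 KO libraries, without overlap, and Lphn2 KO library 1 lay well above the other Lphn2 KO libraries (log2 fold change -2.42 ± 0.97 (SE), edgeR adjusted p = 0.299). In edgeR without that library it was called lower (adjusted p = 0.0327, all alternatives 0.0327 to 0.62). Trophoblast markers also set Lphn2 KO library 1 above the other Lphn2 KO libraries. The 11 genes summed to 5018, 5869 and 1389.9 CPM in WT and 3676, 51.1 and 145 CPM in Lphn2 KO libraries. Unlike Col13a1, this sum was lowest of the WT group in WT library 3, and its groups overlapped. The yolk sac sums given above set Lphn2 KO library 1 apart as well. The part of these tissues in the Col13a1 values was not tested. Col23a1 stood at 2.03, 1.52 and 5.88 CPM and 0.118, 0.667 and 0 CPM without overlap (log2 fold change -3.60, edgeR adjusted p = 0.229, DESeq2 adjusted p = 0.0285). Col17a1, of the hemidesmosomes of epithelia, stood at 2.25, 4.51 and 2.82 CPM and 2.9, 0 and 1.28 CPM with overlap (log2 fold change -1.16, edgeR adjusted p = 0.647). Col25a1, a neuronal chain not tested by edgeR, stood at 0.978, 0 and 12.8 CPM and 0.118, 0.20 and 0.214 CPM (DESeq2 adjusted p = 0.0315). Col26a1, which is not classed with the transmembrane chains, stood at 3.12, 1.1 and 26.5 CPM and 0.549, 0 and 0.214 CPM without overlap (log2 fold change -5.18 ± 1.47 (SE), edgeR adjusted p = 0.194, DESeq2 adjusted p = 0.000711). Both were highest in WT library 3, as was the neuronal marker Elavl3 at 3.98, 1.16 and 80.4 CPM in WT and 0.588, 0 and 0.285 CPM in Lphn2 KO libraries.

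**Figure D4:**
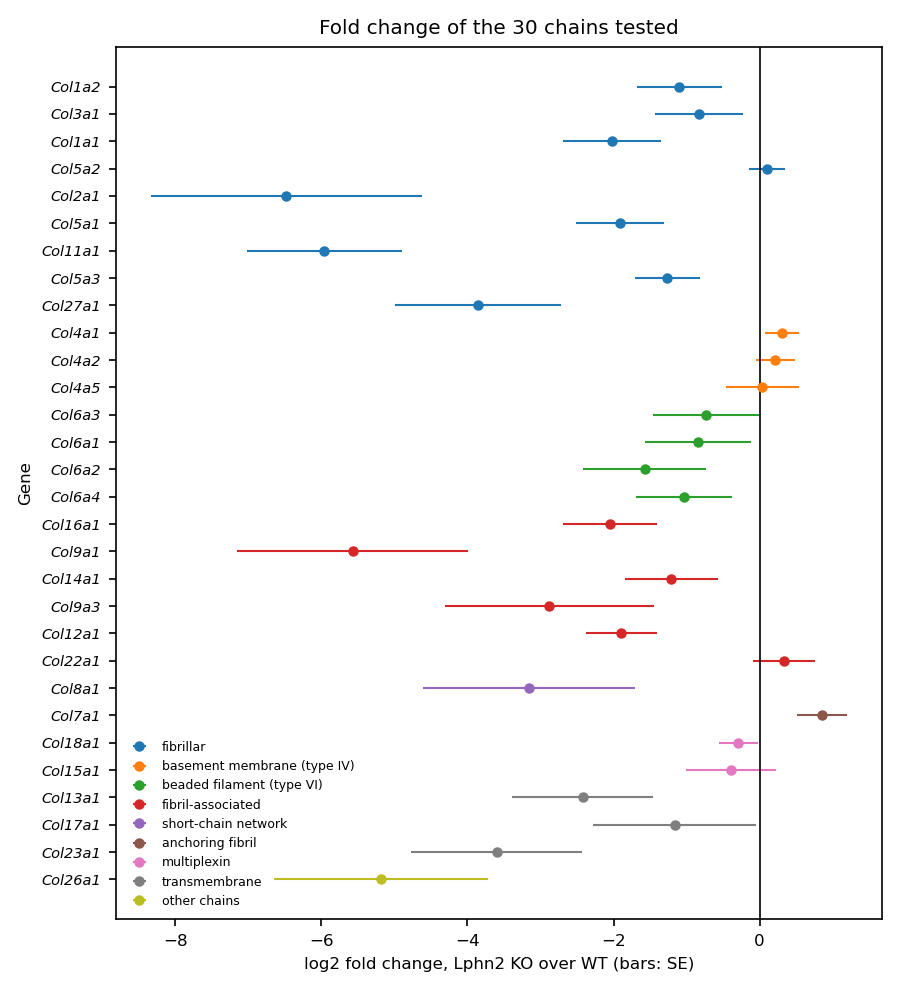
Log2 fold change of Lphn2 KO over WT with its SE for the 30 chains tested, coloured by class (edgeR, 3 libraries per group). Col2a1, Col11a1 and Col9a1 lie farthest below 0, the type IV chains lie close to 0, and Col7a1 lies above it at 0.85.

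The remaining 11 chain symbols averaged under 1 CPM and were not tested by edgeR, and none passed with DESeq2, which gave 6 of them an adjusted p: Col4a3, Col4a4, Col4a6, Col6a5, Col6a6, Col10a1, Col11a2, Col19a1, Col20a1, Col24a1 and Col28a1. Col11a2, of cartilage, had 98 of its counts in WT library 3 and at most 9 in any other library, and Col19a1 had 39 there and at most 8 elsewhere. Col20a1, Col24a1 and Col28a1 had at most 30, 11 and 3 counts in a library. Col10a1, the marker of hypertrophic cartilage, had 1, 8 and 7 counts in WT and 0 in each Lphn2 KO library. Col4a3bp, the ceramide transfer gene that shares the name pattern, stood at 62.2, 55.8 and 36 CPM in WT and 62.1, 67.3 and 72.7 CPM in Lphn2 KO libraries (log2 fold change 0.39, edgeR adjusted p = 0.45).

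Pairs of chains, most of which share a molecule, were compared within each library, where library scaling has no part. The log2 ratio of Col4a1 to Col4a2 was 1.60, 1.21 and 1.40 in WT and 1.52, 1.61 and 1.32 in Lphn2 KO libraries, a narrow range over all 6. The log2 ratio of Col1a1 to Col1a2 was -1.03, -1.47 and -1.43 in WT and -1.66, -2.42 and -2.08 in Lphn2 KO libraries, so every Lphn2 KO library held less Col1a1 per Col1a2 than every WT library, also WT library 2. Col3a1 to Col1a1, chains of separate molecules in the same fibres, stood at -0.39, 0.02 and 0.46 and 0.38, 1.29 and 1.35, with Lphn2 KO library 1 inside the WT range. Col5a1 to Col5a2 stood at 0.32, -2.27 and 0.05 and -2.03, -2.26 and -2.42, where WT library 2 lay among the Lphn2 KO libraries. Col6a1 to Col6a2 stood at 0.13, 0.22 and 0.10 and 1.46, 0.38 and 1.18, all Lphn2 KO values above all WT values, from as few as 36 counts of Col6a2 in WT library 2 and 40 in Lphn2 KO library 1. Col6a3 to Col6a1 stood at 5.13, 5.07 and 4.38 and 5.43, 5.13 and 4.69, with overlap. An exact permutation test of 3 against 3 libraries cannot go below a two-sided p of 0.1, so no p is given for these ratios.

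**Figure D5:**
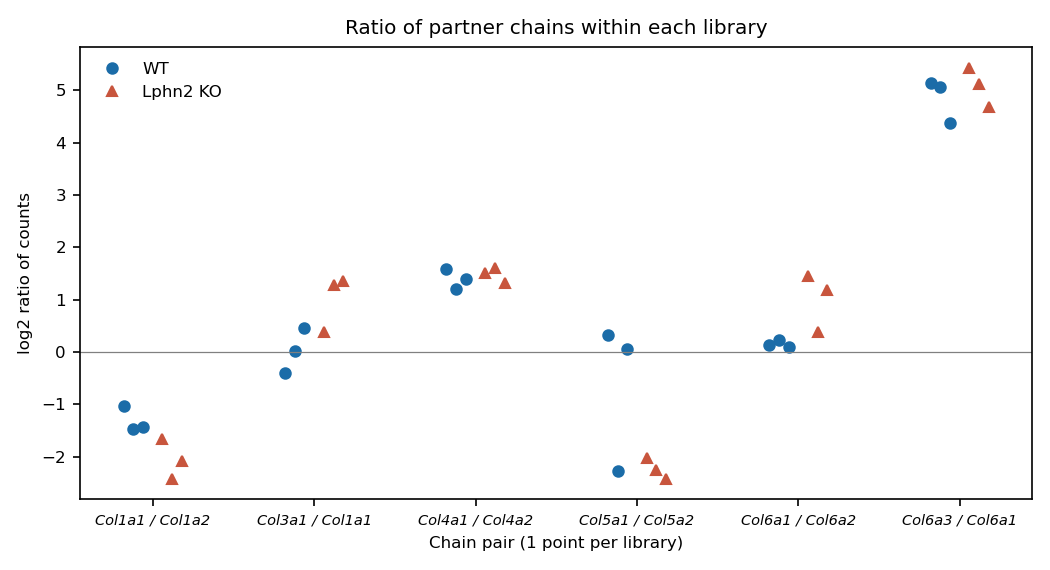
Log2 ratio of the counts of chain pairs within each library, with 1 point per library (circles WT, triangles Lphn2 KO). Col4a1 over Col4a2 stays within a narrow band, the groups do not overlap for Col1a1 over Col1a2 and Col6a1 over Col6a2, and WT 2 sits with the Lphn2 KO points for Col5a1 over Col5a2.

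The machinery that makes and matures collagen had fold changes on both sides of 0. Of 60 listed symbols, older synonyms included, 54 were in the tables and 47 were tested, with 0 called in either direction by edgeR and by limma-voom. Before adjustment edgeR had 5 higher (10.6%) and 4 lower (8.51%) at the 0.05 level, near the 8.68% and 6.86% of all genes. DESeq2 called 5 of these 47 higher (10.6%) and 2 lower (4.26%), beside 2.82% and 3.13% of the 15602 genes to which it gave an adjusted p. Among the 13848 genes tested in edgeR it called 440 higher and 378 lower. The median log2 fold change over the 47 was 0.05. All Lphn2 KO values lay above all WT values in 6 of the 47 and below them in 3, beside 12.1% and 9.39% of all genes. Serpinh1, the collagen chaperone of the endoplasmic reticulum, stood at 4774, 2431 and 3593 CPM in WT and 3253, 4305 and 3559 CPM in Lphn2 KO libraries, a log2 fold change of 0.04 ± 0.28 (SE) that turned to -0.16 without WT library 2 and -0.07 without Lphn2 KO library 2. P4ha1, a catalytic subunit of prolyl hydroxylase, stood at 47.4 ± 3.99 and 59.9 ± 6.42 CPM (SD, n = 3 each). Plod2, the lysyl hydroxylase of collagen telopeptides, stood at 139, 165 and 128 CPM and 221, 413 and 419 CPM without overlap (log2 fold change 1.29 ± 0.28 (SE), edgeR adjusted p = 0.166, DESeq2 adjusted p = 0.00131). Colgalt1, a collagen galactosyltransferase, stood at 120.5 ± 18.8 and 157 ± 36.3 CPM. In the chaperone and export role Creb3l1, a transcription factor of collagen secretion, stood at 6.38, 4.2 and 5.3 CPM and 2.98, 1.6 and 1.43 CPM without overlap (log2 fold change -1.39, edgeR adjusted p = 0.213). Fkbp14 and Sec23a had log2 fold changes of 0.40 and -0.29.

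Of the 6 tested proteases and enhancers that trim procollagen, 5 had a fold change above 0 and 0 passed in edgeR. The 3 with the smallest p are described. Adamts2, which removes the amino propeptide of types I to III, stood at 212, 292 and 137 CPM in WT and 352, 464 and 454 CPM in Lphn2 KO libraries. Its relative Adamts14 stood at 5.72, 6.64 and 5.33 CPM and 9.14, 16.1 and 14.9 CPM, and Bmp1, which removes the carboxy propeptide, at 53.6, 54.5 and 40.6 CPM and 63.3, 101 and 111 CPM. These were the 3 of the 6 with all Lphn2 KO values above all WT values, beside 12.1% of all genes. Their log2 fold changes were 0.99, 1.18 and 0.89, with adjusted p of 0.205, 0.176 and 0.194 in edgeR and 0.0313, 0.0266 and 0.0406 in DESeq2. Without Lphn2 KO library 1 edgeR called Adamts14, Bmp1, Plod2 and Dcn higher, with adjusted p of 0.0401, 0.04, 0.0193 and 0.0425 (all alternatives 0.0266 to 0.574, 0.04 to 0.574, 0.00131 to 0.574 and 0.0389 to 0.588).

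Cross-linking enzymes included Loxl1, a lysyl oxidase of elastic fibres, at 19, 3.9 and 16.2 CPM in WT and 2.04, 1.33 and 2.92 CPM in Lphn2 KO libraries without overlap (log2 fold change -2.64 ± 0.63 (SE), edgeR adjusted p = 0.172, DESeq2 adjusted p = 0.00169). Lox itself, the lysyl oxidase of fibrillar collagen, stood at 362, 141 and 167 CPM and 99.3, 82 and 155 CPM (log2 fold change -0.99, edgeR adjusted p = 0.309), and Loxl3 had a log2 fold change of 0.23. The fibril-binding proteoglycans had fold changes of opposite sign: Dcn, decorin, stood at 349.6, 419 and 280.2 CPM and 418, 755 and 951 CPM, and Lum, lumican, at 23.3, 9.32 and 18.1 CPM and 2.27, 5.27 and 7.13 CPM. Their log2 fold changes were 1.02 and -1.80, with adjusted p of 0.222 and 0.194 in edgeR and 0.0389 and 0.0145 in DESeq2. Sparc, a collagen-binding matrix protein, stood at 4967 ± 1813 and 7295 ± 1697 CPM. Of the receptors, Itga2, Mrc2 and Itgb1 had the smallest p, with log2 fold changes of 1.03, -1.28 and 0.30 and edgeR adjusted p of 0.382, 0.471 and 0.511.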

How the data were processed

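Per the labels' protocols, libraries were Lexogen QuantSeq libraries of 500 ng Trizol-extracted RNA. The authors deposited 1 table of whole-number counts per gene symbol for each of 6 libraries, without normalization. Bowtie2, edgeR and the build mm10 are named in the submitters' processing notes. Versions, annotation, counting and strand are not given in the labels or file headers. The 6 counts of 8 members share a divisor (3 for Col25a1, 2 for Col4a3bp, Col4a5, Col8a2, Col9a1, Col13a1, Col17a1 and Col18a1), so counting error there exceeds that of the printed number.

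Genes passing filterByExpr (minimum count 10) were scaled by TMM and Lphn2 KO was compared with WT by the quasi-likelihood test of edgeR 4.0.16 in R 4.3.3, without covariates, with Benjamini-Hochberg adjustment over 13848 genes at 0.05. SEs are the fold change over the root of the F statistic. Alternatives were DESeq2 1.42.0, limma-voom (limma 3.58.1), other scalings and filters, a block on replicate number, removal of the common divisor and leaving out each library. Per-library deviations used log2(CPM + 0.5). The pipeline was run on simulated data, where recovery of the set fold changes was required only with little variation between libraries. That check does not give the power in these data. Gene positions are from GENCODE M21 on mm10, found for 45 of 45 symbols.

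Members and gene lists were chosen with earlier results of these data known. Named are Adgrl2, all members, and in each role of the collagen pathway list those past the threshold or the 3 with the smallest p; Serpinh1 and the marker genes Myh11, Cnn1, Acta2, Sox9, Pax1, Nkx2-5 and Elavl3 were singled out after their values were seen. Libraries are not stated to come from separate embryos, so p-values cover the variation among these libraries only, which may be technical. Collagen chain counts were 12421 to 76385 per library, and 1 count equals 0.0261 to 0.0713 CPM.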

Additional observations from a re-analysis of the deposited data

How the results depend on the processing

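Under 16 alternatives to the test of collagen members, none was called higher. The number called lower was 0 except with DESeq2 (10) and on leaving out 1 library (0 to 2). Over all genes DESeq2 called 440 higher and 488 lower, and leaving out 1 library gave 0 to 252 higher and 0 to 466 lower. Members with all Lphn2 KO values above all WT values were 2 with library size as the scaling (6.45%, beside 14.3% of all genes). They were also 2 with no filter (5.88%, beside 9.71%) and with a mean CPM of at least 1 (5.88%, beside 13.3%). With the common divisor removed they were 2 as well (6.45%, beside 13.0%). On leaving out 1 library, 2 to 5 members lay above and 8 to 21 below, beside 13.6% to 22.0% and 11.8% to 23.6% of all genes. Where 5 CPM or more in 3 libraries was asked for, 2 of the 17 members then tested lay below (11.8%), beside 7.78% of all genes. The median log2 fold change of the chains was -1.87 to -1.04 on leaving out 1 library. With the replicate number as a block the count of genes called lower was 0 instead of 7 and that of collagen members stayed at 0. The log2 fold change of Col15a1 was then 0.035 instead of -0.39. Deviations from the group means correlated at 0.16, -0.04 and 0.07 between samples of the same number, so the numbers were not taken to pair the samples.

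Of Adgrl2, the members tested and the named pathway genes, 6 changed sign on leaving out 1 library: Col15a1 (0.72 without WT replicate 1), Col6a3 (0.49 without WT replicate 1), Col9a3 (0.75 without WT replicate 3), Serpinh1 (-0.16 without WT replicate 2 and -0.07 without Lphn2 KO replicate 2), Col5a2 (-0.10 without Lphn2 KO replicate 3) and Col4a5 (-0.34 without WT replicate 2 and -0.07 without Lphn2 KO replicate 3). Their ranges on leaving out 1 library were -0.79 to 0.72, -1.21 to 0.49, -3.41 to 0.75, -0.16 to 0.30, -0.10 to 0.32 and -0.34 to 0.57. The cause was not tested. Chains under a few CPM rest on few counts.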

Other observations

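The library in which a chain was highest was uneven. Of the 30 chains tested, 11 were highest in WT replicate 1, 3 in WT replicate 2, 11 in WT replicate 3 and 5 in an Lphn2 KO library. Over all 13848 genes tested, WT replicates 1, 2 and 3 were the highest library for 12.9%, 17.9% and 24.8% of genes and an Lphn2 KO library for 44.5%. Those highest in WT replicate 1 were Col1a1, Col1a2, Col3a1, Col4a5, Col5a1, Col6a1, Col6a2, Col6a3, Col14a1, Col15a1 and Col16a1. Those highest in WT replicate 3 were Col2a1, Col8a1, Col9a1, Col9a3, Col11a1, Col12a1, Col13a1, Col18a1, Col23a1, Col26a1 and Col27a1. Col8a2, Col9a2 and Col25a1, not tested by edgeR, were also highest in WT replicate 3. The 5 chains highest in an Lphn2 KO library were Col4a1, Col4a2, Col5a2, Col7a1 and Col22a1. WT replicate 2 held 33.7 percent of its collagen sum as fibrillar chains and 42 percent as type IV chains, and the 3 Lphn2 KO libraries held 30.7, 32.9 and 35.3 and 32.6, 30.1 and 31.6 percent, whereas WT replicates 1 and 3 held 48.3 and 48.9 percent and 9.89 and 11.5 percent.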
